A study of Rattus norvegicus with 15 samples.

Results

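The expression of 10 genes of prostanoid and lipoxygenase biology was read in the rat ductus arteriosus and aorta around birth. They are the phospholipase gene Pla2g2a, the cyclooxygenase genes Ptgs1 and Ptgs2, the prostacyclin synthase gene Ptgis, the receptor genes Ptger4, Ptgir and Ptgfr, the prostaglandin transporter gene Slco2a1, the prostaglandin dehydrogenase gene Hpgd and the lipoxygenase gene Alox15. Members were every probe set (a group of array oligonucleotides against 1 transcript) that the platform annotation assigns to a single gene with one of these symbols. The rule found 16 probe sets for all 10 genes, of 26202 probe sets and 10969 named genes in all, with 15 of the 16 on chip A and 1 (Hpgd) on chip B.

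The ductus arteriosus is the fetal channel between pulmonary artery and aorta, and it shuts in the hours after birth. There were 5 states, all of rats whose strain and genotype are not stated. The newborn ductus and the newborn aorta (arch and thoracic part) came from animals 3 h after vaginal delivery. The oxygen ductus came from fetuses on day 19 of gestation, delivered by caesarean section once the dam had spent 3 h in 100% oxygen. The fetal ductus and the fetal aorta came from fetuses of the same age with normoxic dams. Vessels were dissected in cold medium gassed with 12.5% oxygen for newborns and 2.5% for fetuses, so age, delivery route and dissection medium change together and cannot be told apart. A single array was hybridised per state on each of 3 Affymetrix chip types (A, B and C), which makes 15 arrays, and the number of animals behind an array is not stated. For the newborn aorta on chip A the sample title dates the 3 h from coitus, whereas the description gives newborn rats, and the description was followed.

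Prostanoids are made in steps. A phospholipase frees arachidonic acid from membrane lipid, a cyclooxygenase turns it into an endoperoxide, and a terminal synthase makes the final product, such as prostaglandin E2 or prostacyclin. In the fetal ductus, prostaglandin E2 acts through the EP4 receptor and cyclic AMP to keep the smooth muscle relaxed, and its withdrawal after birth is part of normal closure. A transporter and a dehydrogenase clear circulating prostaglandin, mainly in the lung, and lipoxygenases turn the same arachidonic acid into hydroperoxides instead.

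Values are linear signal intensities, and any signal under a floor, the median of all 5 arrays of the chip type (150 for chip A, 242 for chip B), was raised to it, so that a fold against it is a lower bound. With 1 array per state, the spread between animals is unknown, and the number of arrays limits the precision. The standard deviation (SD) of a log2 ratio between 2 arrays was estimated for an unchanged gene. It was scaled from the median absolute deviation of the interaction of vessel and stage among probe sets of like signal, which outlying probe sets barely widen. It was 0.20 to 0.34 on chip A, and the oxygen ductus array did not enter it. Smooth muscle markers were above the floor in every state (10 of 10 measured genes), while lung epithelial markers were above it for 2 to 4 of 11 genes and those of neutrophils and eosinophils for 0 to 2 of 6. The lung marker Sftpc was uneven, at 286.4 in the newborn ductus and 469.3 in the fetal aorta. It was under the floor in the oxygen ductus (52.5), the fetal ductus (16.9) and the newborn aorta (14.0). The part of lung tissue in the member values was not tested. In whole vessel, fewer cells of a type and less RNA per cell cannot be told apart.

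Of the 10 genes, 7 were above the floor in at least 4 of the 5 states at their brightest probe set. These were Ptgs1, Ptgis, Ptgir, Slco2a1 and Alox15 in all 5, and Pla2g2a and Ptgfr in 4. Ptgs2 and Ptger4 lay near background, each above the floor in 1 state, and Hpgd was under it in all 5 on both chips.

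**Figure D1:**
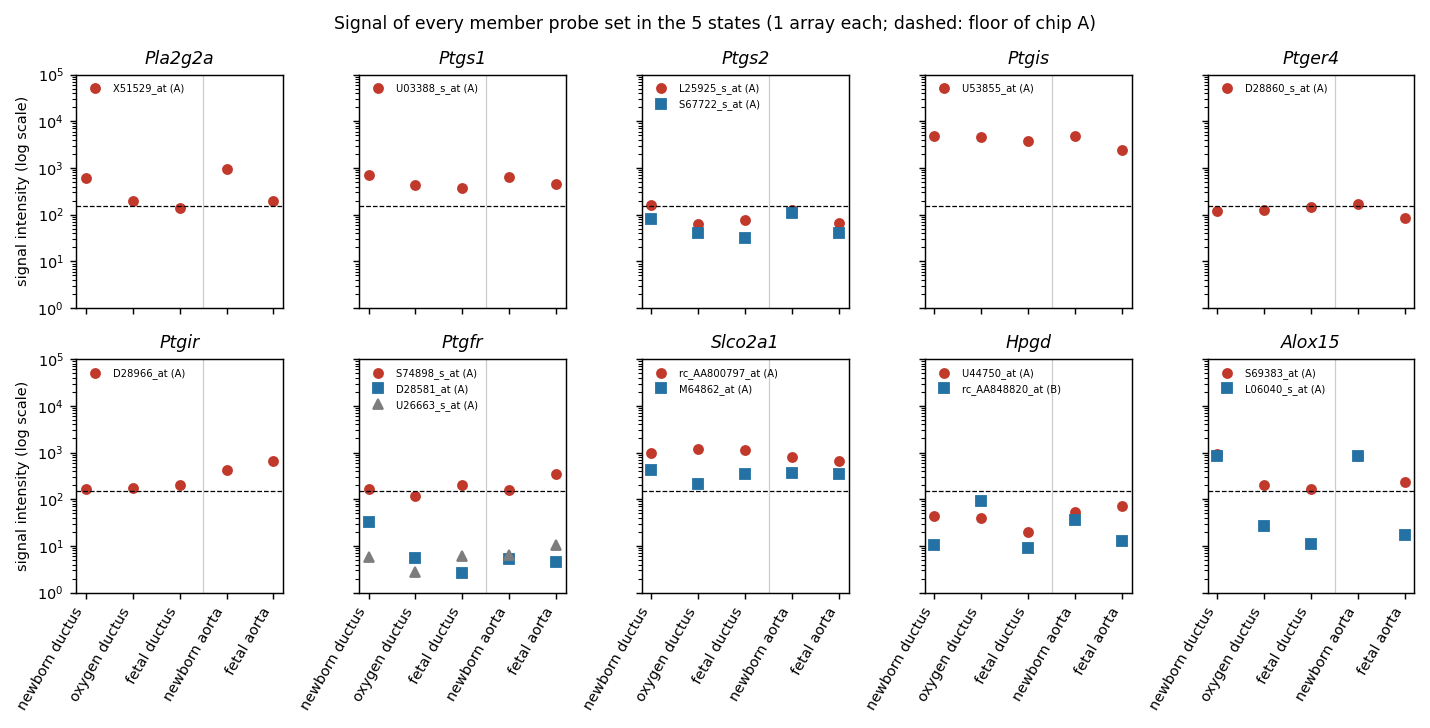
Signal intensity (log scale) of each probe set of the 10 genes in the newborn, oxygen and fetal ductus and the newborn and fetal aorta, 1 array per point, with the floor of chip A dashed (the chip B probe set of Hpgd has its own floor of 242). Alox15 and Pla2g2a stand higher in both newborn vessels, Ptgir stands higher in both aortas, and Ptgs2, Ptger4 and Hpgd lie around or under the floor.

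Pla2g2a encodes the secreted group IIA phospholipase A2, which frees fatty acids from phospholipid. Its signal was 604.4 in the newborn ductus, 192.7 in the oxygen ductus, 141.8 in the fetal ductus, 959.1 in the newborn aorta and 198.6 in the fetal aorta. Both newborn vessels were high, and the 3 fetal samples lay close to the floor. The newborn ductus was at least 4.03-fold above the fetal ductus, whose signal was under the floor, and the newborn aorta was 4.83-fold above the fetal aorta. Between the newborn vessels, the ductus had a log2 ratio to the aorta of -0.67 (SD of an unchanged ratio 0.34).

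Ptgs1 encodes the constitutive cyclooxygenase. Its signal was 716.3 in the newborn ductus, 430.5 in the oxygen ductus, 368.3 in the fetal ductus, 653.7 in the newborn aorta and 459.1 in the fetal aorta. Both newborn samples were above all fetal ones, and the share of all probe sets with that order was not counted. The newborn to fetal log2 ratio was 0.96 in the ductus and 0.51 in the aorta (SD of an unchanged ratio 0.30), which placed Ptgs1 102nd from the top of 4104 chip A probe sets above the floor on both arrays in the ductus and 419th of 4115 in the aorta. Platelets carry this enzyme, and the platelet chemokine gene Pf4, which rose with birth by 1.33 on the log2 scale (SE 0.21, limma adjusted p = 0.0354), had signals of 2376.1 in the newborn ductus, 1562.1 in the oxygen ductus, 795.8 in the fetal ductus, 2775.9 in the newborn aorta and 1309.6 in the fetal aorta. Over the whole platelet list, 4 or 5 of 8 measured genes were above the floor in each state, with summed signals of 3720.5 and 4419.0 in the newborn ductus and newborn aorta, 2720.8 in the oxygen ductus, and 1899.0 and 2863.2 in the fetal ductus and fetal aorta. Without Pf4 these sums were 1344.4 in the newborn ductus against 1103.2 in the fetal ductus, and 1643.1 in the newborn aorta against 1553.6 in the fetal aorta. The median newborn to fetal log2 ratio of the 5 platelet genes compared was 0.14 in the ductus and 0.12 in the aorta, and Gp5, Clec1b and Tbxas1 were under the floor in every state. The 12 endothelial markers, whose cells also make prostanoids, summed to 13661.9 in the newborn ductus against 9448.2 in the fetal ductus and 13845.5 in the newborn aorta against 9803.1 in the fetal aorta, with a median log2 ratio of 0.54 in the ductus and 0.37 in the aorta. The 10 measured smooth muscle markers summed to 113452 in the newborn ductus, 78087.2 in the oxygen ductus, 73599.4 in the fetal ductus, 66933 in the newborn aorta and 48168.7 in the fetal aorta. Their median newborn to fetal log2 ratio was 0.62 in the ductus and 0.47 in the aorta. Their median ductus to aorta log2 ratio was 0.88 in the newborn and 0.69 in the fetus. The part of any of these cell types in the Ptgs1 and Ptgis values was not tested.

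Ptgs2 encodes the inducible cyclooxygenase. At its brighter probe set, L25925_s_at, the signal was 162.4 in the newborn ductus, 62.2 in the oxygen ductus, 78.6 in the fetal ductus, 123.2 in the newborn aorta and 65.3 in the fetal aorta. At S67722_s_at it was 79.6 in the newborn ductus, 39.8 in the oxygen ductus, 31.1 in the fetal ductus, 108.0 in the newborn aorta and 39.8 in the fetal aorta. Only the newborn ductus at the first probe set passed the floor of 150, so its excess over the fetal ductus can be given as at least 1.08-fold. The other 9 values are under the floor and carry no order.

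Ptgis encodes prostacyclin synthase. Its signal was 4845.4 in the newborn ductus, 4700.6 in the oxygen ductus, 3807.6 in the fetal ductus, 4931.5 in the newborn aorta and 2470.7 in the fetal aorta. The fetal aorta stood lowest, and the newborn and oxygen ductus and the newborn aorta lay close together. The newborn to fetal log2 ratio was 0.35 in the ductus and 1.00 in the aorta (SD of an unchanged ratio 0.20). The ductus to aorta log2 ratio was -0.03 in the newborn and 0.62 in the fetus.

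The bases before the transcription start of 3 of these genes are shown so that the promoter of Pla2g2a, high in both newborn vessels, can be set beside those of the 2 cyclooxygenase isoenzymes. Each run holds the 250 bases upstream of the RefSeq start (rat build GRCr8), 5′ to 3′, and capitals mark matches to the motifs searched.
Pla2g2a, chr5:156359475-156359724, plus strand: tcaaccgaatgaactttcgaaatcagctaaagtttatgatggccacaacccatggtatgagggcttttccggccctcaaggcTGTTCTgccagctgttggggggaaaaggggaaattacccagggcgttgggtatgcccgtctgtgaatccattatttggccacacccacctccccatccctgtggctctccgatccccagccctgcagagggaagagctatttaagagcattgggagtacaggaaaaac
Ptgs1, chr3:39981169-39981418, plus strand: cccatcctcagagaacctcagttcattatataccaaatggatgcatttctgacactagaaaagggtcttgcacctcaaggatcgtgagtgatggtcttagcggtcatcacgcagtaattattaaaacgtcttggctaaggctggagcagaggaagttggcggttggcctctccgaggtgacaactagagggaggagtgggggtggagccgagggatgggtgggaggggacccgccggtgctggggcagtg
Ptgs2, chr13:64713813-64714062, plus strand: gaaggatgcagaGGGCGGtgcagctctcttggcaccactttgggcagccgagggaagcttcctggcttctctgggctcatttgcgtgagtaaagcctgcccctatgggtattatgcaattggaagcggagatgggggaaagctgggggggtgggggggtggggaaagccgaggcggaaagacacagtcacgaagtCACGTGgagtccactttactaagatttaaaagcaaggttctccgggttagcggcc
The motifs, searched on both strands, were the TATA box TATAAA, the GC box GGGCGG, the AP-1 site TGAGTCA, the cyclic AMP half-site TGACG, the hypoxia core ACGTG, the glucocorticoid receptor half-site AGAACA and the E-box CACGTG, which contains the hypoxia core. The Pla2g2a run holds the half-site on its other strand, as TGTTCT, 168 bases before the start. The Ptgs2 run holds the E-box 55 bases and a GC box 238 bases before the start, and the Ptgs1 run holds none of the 7 motifs. Of all 33469 rat promoters in the table, 17.5% hold the glucocorticoid half-site, 5.59% the E-box, 16.6% the hypoxia core, 30.5% the GC box, 18.2% the cyclic AMP half-site, 12.9% the TATA box and 4.05% the AP-1 site. Over the 8 genes with a promoter in the table (all but Ptgis and Alox15), 4 held the GC box, 2 the glucocorticoid half-site, 1 each the TATA box, the cyclic AMP half-site, the hypoxia core and the E-box, and 0 the AP-1 site. These are matches of letters and not measured sites.

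Ptger4 encodes the EP4 receptor for prostaglandin E2, coupled to cyclic AMP. Its signal was 120.0 in the newborn ductus, 124.3 in the oxygen ductus, 144.8 in the fetal ductus, 166.3 in the newborn aorta and 83.2 in the fetal aorta. Only the newborn aorta was above the floor, and the 3 ductus samples, all under it, cannot be ranked. The newborn aorta was at least 1.11-fold above the fetal aorta and the newborn ductus at least 1.11-fold below the newborn aorta.

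Ptgir encodes the IP receptor for prostacyclin, which also raises cyclic AMP. Its signal was 165.1 in the newborn ductus, 175.8 in the oxygen ductus, 205.6 in the fetal ductus, 428.8 in the newborn aorta and 652.5 in the fetal aorta. All 3 ductus samples were lower than both aortas, and the share of all probe sets with that order was not counted. The ductus was 2.60-fold lower than the aorta in the newborn and 3.17-fold lower in the fetus, where it ranked 10th from the lowest of 4182 chip A probe sets above the floor on both arrays. The newborn ductus had a log2 ratio of -0.32 to the fetal ductus and of -0.09 to the oxygen ductus, both smaller than the SD of 0.34 for an unchanged ratio. Their signals lie close to the floor of 150, so the folds depend on where background is set. Mast cell markers were also lower in the ductus, at summed signals over 10 measured genes of 1677.7 in the newborn ductus, 941.7 in the oxygen ductus, 1228.8 in the fetal ductus, 2596.4 in the newborn aorta and 2610.9 in the fetal aorta, with 1 to 5 genes above the floor and Kit and Ms4a2 under it in every state. Their part in the Ptgir values was not tested.

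The Ptgir run is shown because its vessel difference was the largest among the 10 genes.
Ptgir, chr1:86707440-86707689, plus strand: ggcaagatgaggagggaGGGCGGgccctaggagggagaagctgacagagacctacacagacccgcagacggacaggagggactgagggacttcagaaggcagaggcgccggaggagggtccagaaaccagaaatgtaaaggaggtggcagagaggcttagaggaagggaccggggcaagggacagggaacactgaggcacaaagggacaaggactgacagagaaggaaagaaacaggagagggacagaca
It holds a GC box (capitals) 233 bases before the start and none of the other 6 motifs, and 58.8% of its bases are G or C, against 52.4% for Pla2g2a, 54.4% for Ptgs1 and 57.2% for Ptgs2.

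Ptgfr encodes the FP receptor for prostaglandin F2alpha, which acts through calcium. At its brightest probe set, S74898_s_at, the signal was 169.6 in the newborn ductus, 116.0 in the oxygen ductus, 198.7 in the fetal ductus, 157.5 in the newborn aorta and 348.9 in the fetal aorta. The fetal aorta stood apart from the other 4 states. The newborn aorta was 2.22-fold lower than the fetal aorta, the newborn ductus had a log2 ratio of -0.23 to the fetal ductus, and the fetal ductus one of -0.81 to the fetal aorta (SD of an unchanged ratio 0.34). The other 2 probe sets of Ptgfr ranged from 2.6 to 33.3, under the floor in every state, and so do not bear on this.

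Slco2a1 encodes the prostaglandin transporter, which takes prostaglandins into cells for breakdown. At rc_AA800797_at the signal was 969.2 in the newborn ductus, 1169.1 in the oxygen ductus, 1140.4 in the fetal ductus, 783.5 in the newborn aorta and 646.5 in the fetal aorta. At M64862_at it was 432.3 in the newborn ductus, 210.6 in the oxygen ductus, 348.2 in the fetal ductus, 355.6 in the newborn aorta and 342.2 in the fetal aorta. The probe sets disagreed. The first was higher in all 3 ductus samples than in both aortas, and the share of all probe sets with that order was not counted. Its fetal ductus to fetal aorta log2 ratio was 0.82 (SD of an unchanged ratio 0.28), where the second gave 0.03. The second had a newborn to oxygen ductus log2 ratio of 1.04, where the first gave -0.27. Heart muscle markers moved with the first in the fetus, at a summed signal of 34733.4 in the fetal ductus and 16067.5 in the fetal aorta (12 and 9 of 13 measured genes above the floor), while in the newborn their sums were 16179.6 in the ductus and 20694.5 in the aorta. Endothelial markers summed to 9448.2 in the fetal ductus and 9803.1 in the fetal aorta, and to 13661.9 in the newborn ductus and 13845.5 in the newborn aorta. The part of these cells in the Slco2a1 values was not tested.

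Hpgd encodes the dehydrogenase that inactivates prostaglandins. On chip A its signal was 44.5 in the newborn ductus, 40.2 in the oxygen ductus, 19.4 in the fetal ductus, 54.1 in the newborn aorta and 72.6 in the fetal aorta. On chip B it was 10.6 in the newborn ductus, 91.9 in the oxygen ductus, 9.2 in the fetal ductus, 36.1 in the newborn aorta and 12.7 in the fetal aorta. All 10 values were under their chip's floor, and no ratio is given.

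Alox15 encodes a lipoxygenase that oxygenates arachidonic acid, known from leukocytes in several species. At S69383_at the signal was 932.0 in the newborn ductus, 205.5 in the oxygen ductus, 163.6 in the fetal ductus, 836.1 in the newborn aorta and 232.0 in the fetal aorta. At L06040_s_at it was 852.8 in the newborn ductus, 26.8 in the oxygen ductus, 11.2 in the fetal ductus, 853.8 in the newborn aorta and 17.4 in the fetal aorta. Both probe sets gave the same picture, with both newborn vessels high and the 3 fetal samples low, at the second probe set under the floor of 150. At the first probe set the newborn ductus was 5.70-fold above the fetal ductus, the highest ratio among the 4104 chip A probe sets above the floor on both arrays, and the newborn aorta was 3.60-fold above the fetal aorta, 19th of 4115. At the second, the newborn ductus was at least 5.69-fold and the newborn aorta at least 5.70-fold above its fetal counterpart, whose signal was under the floor.

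Markers of leukocytes that could carry Alox15 or Pla2g2a are given beside these values. Of 6 measured neutrophil and eosinophil genes, 1 was above the floor in the newborn ductus, 0 in the oxygen ductus, 1 in the fetal ductus, 2 in the newborn aorta and 1 in the fetal aorta. Their summed signal was 657.4 in the newborn ductus, 509.1 in the oxygen ductus, 516.7 in the fetal ductus, 1105.5 in the newborn aorta and 473.3 in the fetal aorta. The eosinophil gene Prg2 was under the floor throughout. Another eosinophil gene, Epx on chip B, passed its floor of 242 in both aortas, at 279.4 in the newborn and 304.6 in the fetus. It was under that floor in the newborn ductus (74.5), the oxygen ductus (187.6) and the fetal ductus (80.4). At a chip A probe set, the neutrophil gene S100a8 had 367.6 in the newborn ductus against 33.9 in the fetal ductus. That probe set had 320.3 in the newborn aorta against 10.6 in the fetal aorta, both fetal values being under the floor. The brighter S100a8 probe set, on chip B, is the one in the count and sum. It had 205.1 in the newborn ductus, under its floor of 242, against 296.9 in the fetal ductus, and was under the floor in both aortas. The neutrophil gene S100a9 had 222.5 in the newborn ductus against 38.3 in the fetal ductus and 498.8 in the newborn aorta against 30.6 in the fetal aorta. The 13 measured macrophage and monocyte genes summed to 6249.8 in the newborn ductus, 5083.7 in the oxygen ductus, 5030.4 in the fetal ductus, 7020.9 in the newborn aorta and 9429.2 in the fetal aorta, with 9 to 12 above the floor in each state. Fat markers were above the floor for 11 of 12 genes in the newborn aorta and 4 or 5 in each other state, with a summed signal of 18698.4 in the newborn aorta against 4817.4 in the fetal aorta, and 5297.4 in the newborn ductus against 4494.3 in the fetal ductus. The part of these cells in the Alox15 and Pla2g2a values was not tested.

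Newborn ductus was set against fetal ductus to ask what changed at birth in the closing vessel. Of the 8 genes that passed the floor in one or both states, Alox15 and Pla2g2a were at least 2-fold higher and 0 were 2-fold lower. Among all probe sets compared, 2.06% were at least 2-fold higher and 1.88% lower, and among all named genes at their brightest probe set 1.72% were higher and 1.79% lower. The median log2 ratio of the 8 was 0.23, against -0.05 over all genes. Among the others above the floor on both arrays, Ptgs1 came closest at 1.94-fold, and it passed 2-fold after quantile normalization (log2 ratio 1.01). Ptgs2 passed 2-fold (log2 ratio 1.05) with the floor at 0.5 times the chip median.

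Newborn aorta against fetal aorta gave the same 2 genes, of 8 compared, at least 2-fold higher and Ptgfr at least 2-fold lower. Among all probe sets 2.51% were 2-fold higher and 2.49% lower, and among all genes 2.12% and 2.71%. The median was 0.39 for the members and -0.05 over all genes. Ptgis, at 1.996-fold, lay at the edge of the 2-fold line. The Ptgfr log2 ratio of -1.15 became -0.63 with the floor at 1.5 times the chip median, -0.94 with no floor and -0.38 over the mean of its probe sets, each short of 2-fold.

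The limma fit of vessel and stage over the 4 newborn and fetal arrays tests birth in both vessels together, with the vessel-by-stage interaction as its error. Of 9 member probe sets tested, Alox15 at S69383_at and Pla2g2a passed upward and 0 passed downward. Among all 13810 probe sets tested, 0.818% passed upward and 0.608% downward. The members were chosen with earlier results of these data known, so these shares are no independent check. The Alox15 probe set L06040_s_at entered the test only through the newborn arrays where it is high, with both fetal arrays set to the floor. Its p therefore says nothing, is not given and is not counted as a pass. Among the probe sets above the floor on all 4 arrays, 1 of 7 member probe sets passed (Alox15 at S69383_at), and the share of all probe sets passing under this filter is not given. Alox15 rose by 2.18 on the log2 scale at S69383_at (SE 0.23, limma adjusted p = 0.0117). Pla2g2a rose by 2.14 (SE 0.20, limma adjusted p = 0.0113), with the fetal ductus at the floor. Ptgs1 had a birth effect of 0.73 (SE 0.21, limma adjusted p = 0.123), Ptgis 0.67 (SE 0.23, limma adjusted p = 0.173), Ptgfr -0.69 (SE 0.25, limma adjusted p = 0.208) and Ptgir -0.46 (SE 0.20, limma adjusted p = 0.270), and none of these passed the threshold of 0.05. Over 6 alternatives the limma adjusted p of Ptgis ran from 0.0323, with an intensity trend, to 0.281.

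**Figure D2:**
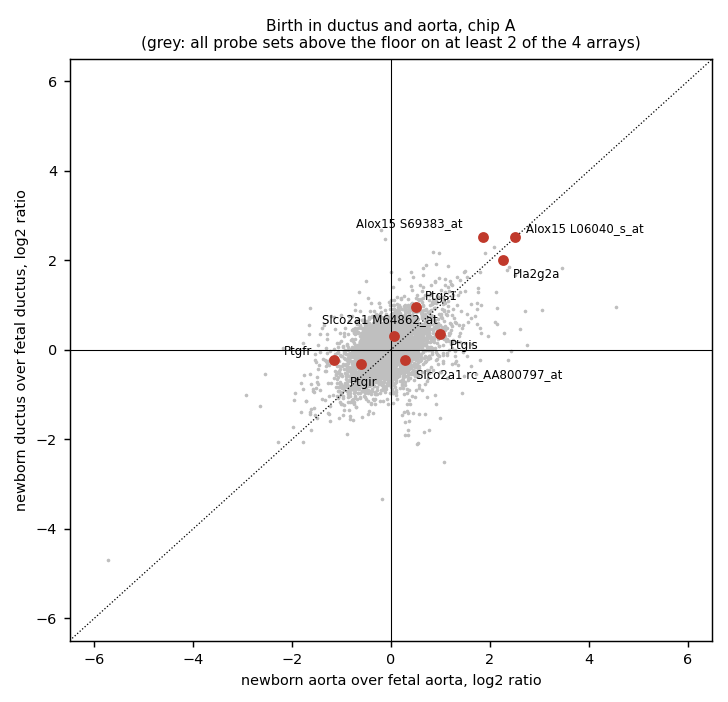
Newborn over fetal log2 ratio in the ductus (vertical) against that in the aorta (horizontal) for the chip A probe sets that passed the floor on 2 or more of the 4 arrays (grey), with the 9 member probe sets in red and the dotted line marking equal ratios. Alox15 and Pla2g2a lie at the upper right, and Ptgfr, Ptgis and Alox15 at S69383_at lie away from the dotted line, with differences between the vessels of 0.92, -0.65 and 0.66.

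Of the members, 6 were above the floor on all 4 newborn and fetal arrays at their brightest probe set. For these, the birth ratio of the ductus minus that of the aorta is given beside its spread among probe sets of like signal. It was -0.65 for Ptgis (SD 0.29), 0.92 for Ptgfr (SD 0.48), 0.66 for Alox15 (SD 0.48), -0.51 for Slco2a1 (SD 0.39), 0.45 for Ptgs1 (SD 0.42) and 0.29 for Ptgir (SD 0.48). Set against that SD, the Ptgis and Ptgfr differences were the largest of these 6, and with 1 array per state none was tested. At its second probe set Slco2a1 had 0.26, and Alox15 had -0.002 at its own, with both fetal arrays at the floor. Pla2g2a had -0.26, with the fetal ductus at the floor. The median over the 9 genes that passed the floor on any of the 4 arrays was 0.12, with 5 values above 0 and 4 below. That median is the value of Ptgs2, which passed the floor on 1 array.

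Newborn ductus against newborn aorta, and fetal ductus against fetal aorta, ask what marks the ductus at each stage. Ptgir was the 1 member at least 2-fold lower in the newborn ductus, of 9 compared, and again in the fetal ductus, of 7 compared. No member was 2-fold higher in the ductus at either stage, and with the floor at 1.5 times the chip median the newborn ratio of Ptgir was -0.93, short of 2-fold. Among all probe sets 1.27% were 2-fold lower and 1.26% higher in the newborn ductus, and 0.913% lower and 1.01% higher in the fetal ductus. Among all genes 1.18% were lower and 1.25% higher in the newborn ductus, and 0.959% were lower and 0.959% higher in the fetal ductus. The median of the members was 0.11 in the newborn and -0.41 in the fetus, against -0.01 and -0.02 over all genes.

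In the limma fit, 0 of 9 member probe sets passed for vessel in either direction, where 0.0145% of all probe sets passed as higher and 0.0217% as lower in the ductus. At an unadjusted p under 0.05, 7.75% of all probe sets passed for vessel. Ptgir had a vessel effect of -1.52 (SE 0.20, limma adjusted p = 0.0886), and its adjusted p ran from 0.0160 to 0.195 over 6 alternatives. It passed with an intensity trend, and among the probe sets above the floor on all 4 arrays, and the shares of all probe sets passing in these alternatives are not given. The vessel effect was 0.56 for Slco2a1 at rc_AA800797_at (SE 0.21, limma adjusted p = 0.597), -0.54 for Pla2g2a (SE 0.20, limma adjusted p = 0.579) and 0.30 for Ptgis (SE 0.23, limma adjusted p = 0.823).

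Oxygen ductus against fetal ductus asks whether raised maternal oxygen alone changed the fetal vessel. Of 7 members compared, 0 were 2-fold higher and 0 lower, where 0.486% of all probe sets were higher and 2.11% lower (0.469% and 0.858% of genes). The median log2 ratio was 0.23 for the members and 0.04 over all genes. Alox15 had a log2 ratio of 0.33 and Ptgs1 one of 0.23, each under the SD of an unchanged ratio, while Ptgis was at 0.30, above its SD of 0.20. These SDs were estimated without the oxygen array, and Ptgis ranked only 597th from the highest of 3961 chip A probe sets above the floor on both arrays. The second probe set of Slco2a1, M64862_at, was at -0.73 (SD of an unchanged ratio 0.34), 194th from the lowest of 3961, where the brighter probe set was at 0.04. Ptgfr, whose oxygen array was at the floor, was at -0.41, and at -0.78 with the floor at 0.5 times the chip median.

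Newborn ductus against oxygen ductus sets birth beside oxygen at the earlier age. Alox15 (4.54-fold) and Pla2g2a (3.14-fold) were at least 2-fold higher in the newborn ductus, of 8 members compared, and 0 were lower. Among all probe sets 4.56% were higher and 2.71% lower, and among all genes 2.59% and 3.24%. The median was 0.15 for the members and -0.09 over all genes. The 6 comparisons share arrays, this one its newborn array with newborn against fetal ductus and its oxygen array with oxygen against fetal ductus.

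**Figure D3:**
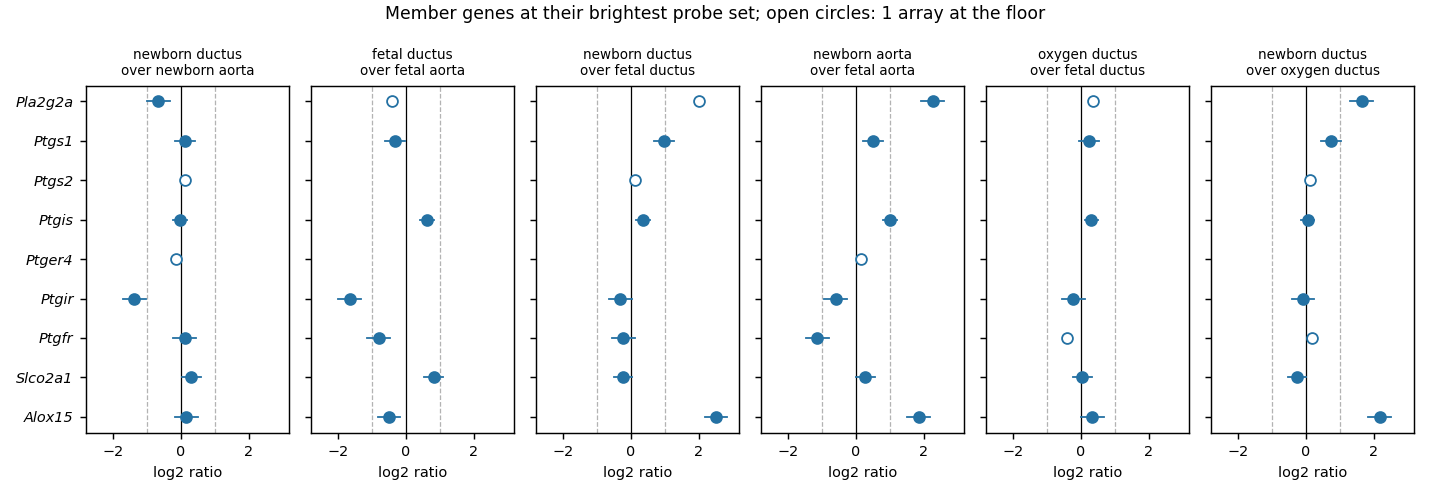
Log2 ratios of the member genes at their brightest probe set in the 6 comparisons, 1 panel each, with dashed lines at 2-fold, bars of 1 SD of an unchanged ratio, and open circles where 1 array was at the floor and the ratio is a bound. Pla2g2a and Alox15 lie right of the upper dashed line wherever a newborn vessel is set against a fetal or oxygen one, and Ptgir lies left of the lower dashed line in both comparisons of ductus with aorta.

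Genes of like pattern were sought for Ptgir and Alox15, the members above the floor in all 5 states whose log2 signals span at least 1. Likeness was the root mean square difference of the 5 centred log2 signals, over 1904 chip A genes above the floor in all 5 states. Closest to Alox15 were Atf3 (0.26), Nupr1 (0.29) and Klf9 (0.31), where the median gene was at 1.11. Their signals in the newborn ductus and fetal ductus were 576.8 against 173.0 for Atf3, 1019.2 against 281.9 for Nupr1 and 3378.6 against 686.6 for Klf9. Closest to Ptgir were Agtr2 (0.28), Myl11 (0.32) and Tnnc2 (0.33), with the median gene at 0.81. Agtr2, which encodes an angiotensin receptor, had 594.2 in the fetal ductus against 2428.0 in the fetal aorta. Myl11 and Tnnc2 are skeletal muscle genes, and the 11 measured skeletal muscle markers summed to 7765.9 in the fetal ductus and 9910.2 in the fetal aorta, and to 7624.5 in the newborn ductus and 7823.0 in the newborn aorta. Without Myh3, the brightest of them, these sums were 5767.9 in the fetal ductus and 6298.1 in the fetal aorta. In the newborn they were 6320 in the ductus and 6547.3 in the aorta.

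The wider pathway was read from lists that include the members. Of 19 measured genes of arachidonic acid release, 13 were compared between newborn and fetal ductus, and Pla2g2a and Anxa1 were at least 2-fold higher. Among all genes compared 1.72% were, and Pla2g2a is counted here again as a member. Anxa1, which encodes annexin A1, an inhibitor of phospholipase action in leukocytes, had 2126.2 in the newborn ductus against 947.8 in the fetal ductus (2.24-fold), and its 2 other probe sets went the same way. The cytosolic phospholipase gene Pla2g4a, above the floor in every state, had 388.8 in the newborn ductus, 380.4 in the oxygen ductus, 328.8 in the fetal ductus, 459.4 in the newborn aorta and 515.4 in the fetal aorta.

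Of 12 measured genes of cyclooxygenases and terminal synthases, 7 to 9 could be compared in each of the 6 comparisons and 0 of them were 2-fold apart, although Ptgs2 passed 2-fold with the lower floor in the newborn ductus against the fetal ductus (1.05) and against the oxygen ductus (1.12). By direction and comparison, 0.469% to 3.24% of all genes were 2-fold apart, so a count of 0 in so short a list does not set it apart from other genes. In this list, thromboxane synthase (Tbxas1) was under the floor in every state. Of 14 measured genes of prostanoid transport and breakdown, 3 to 6 could be compared in each comparison, with 0 of them 2-fold apart, and 8, Hpgd among them, were under the floor throughout.

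Of 8 measured receptor genes, Ptger1 and Ptger2 were under the floor in every state. Ptger3, which encodes the EP3 receptor that lowers cyclic AMP, had 69.7 in the newborn ductus and 429.3 in the newborn aorta, at least 2.87-fold lower in the ductus, whose value is under the floor. It had 282.9 in the oxygen ductus, 278.5 in the fetal ductus and 334.0 in the fetal aorta, so the newborn ductus stood alone, at 1 of its 3 probe sets, the other 2 being under the floor throughout. The thromboxane receptor gene Tbxa2r fell with birth at D21158_s_at (log2 effect -1.49, SE 0.19, limma adjusted p = 0.0213), with 153.1 in the newborn ductus against 418.0 in the fetal ductus and 125.6 in the newborn aorta against 432.6 in the fetal aorta. The newborn aorta value is under the floor of 150 and the newborn ductus value is at its edge, so this effect and its SE depend on the floor. The brighter Tbxa2r probe set, D32080_at, disagreed in the ductus, with 991.5 in the newborn and 770.5 in the fetus. It had 700.9 in the newborn aorta against 909.2 in the fetal aorta.

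Of 11 measured genes of lipoxygenases and leukotrienes, 9 were compared between newborn and fetal ductus. Alox15, counted here again as a member, and Dpep1 were at least 2-fold higher, where 1.72% of all genes were. Dpep1, a dipeptidase that trims leukotriene D4, had 381.7 in the newborn ductus, 172.2 in the oxygen ductus, 103.1 in the fetal ductus, 76.0 in the newborn aorta and 97.8 in the fetal aorta. It was high in the newborn ductus and not in the newborn aorta, where Alox15 was high in both. Alox5, the leukotriene-forming lipoxygenase, was under the floor in every state.

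Downstream of the EP4 and IP receptors, 22 of 31 measured genes of cyclic AMP signalling were compared between newborn and fetal ductus. Of these, 1 was at least 2-fold higher, where 1.72% of all genes were, so the count does not set the list apart. It was Pde4b, a phosphodiesterase that breaks cyclic AMP down, at 1094.5 in the newborn ductus against 447.1 in the fetal ductus. In the newborn aorta it had 756.6 against 289.2 in the fetal aorta. Pde4b rose with birth by 1.34 on the log2 scale (SE 0.19, limma adjusted p = 0.0277). It was the only 1 of 44 probe sets of this list to pass, where 0.818% of all probe sets tested passed upward. Adcy6, an adenylyl cyclase that makes cyclic AMP, had 778.2 in the newborn ductus against 363.1 in the newborn aorta (2.14-fold).

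**Figure D4:**
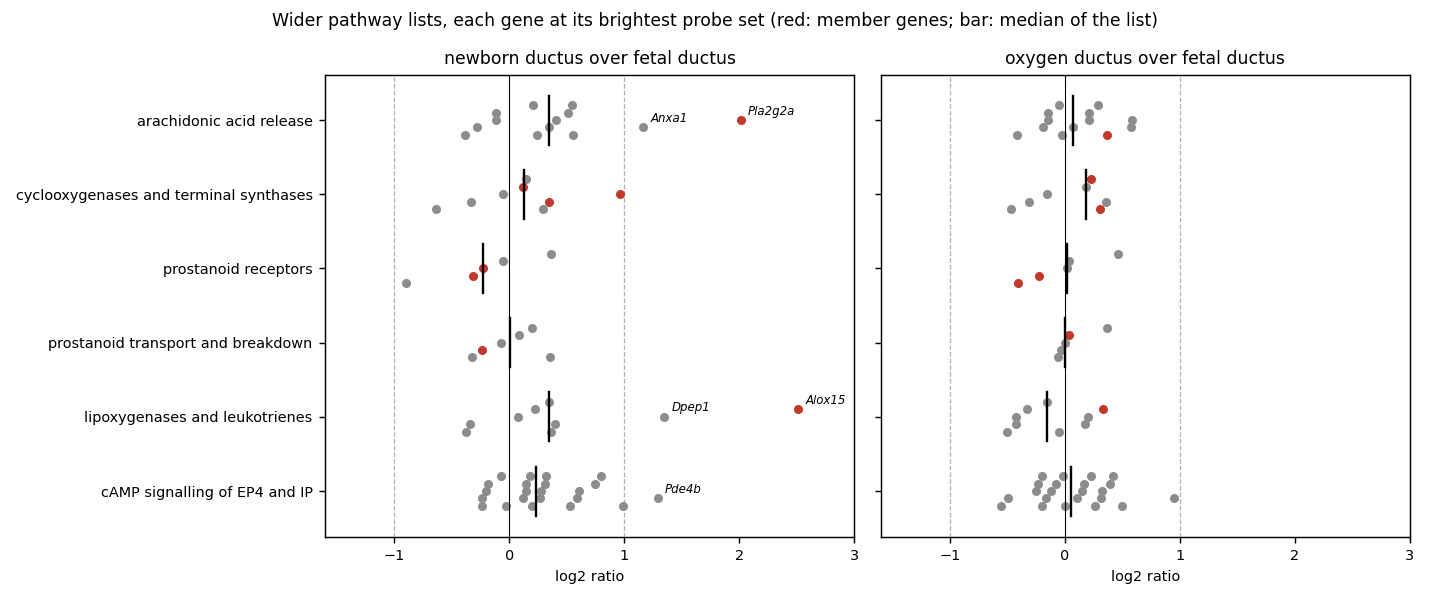
Log2 ratios of newborn over fetal ductus (left) and oxygen over fetal ductus (right) for each gene of the wider lists at its brightest probe set, where either array passed the floor, with members in red, the list median as a bar and dashed lines at 2-fold. In the left panel Pla2g2a, Anxa1, Alox15, Dpep1 and Pde4b lie past the upper line, and in the right panel no gene does.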

How the data were processed

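The deposited values are linear signal intensities per probe set; the submitters' processing notes name MAS5 for 4 of the 5 chip A arrays, and no software is given in the sources used here for the others. With 2% trimmed from each end, array means ran from 500.3 to 500.9, and the authors' intensities were therefore not rescaled. Probe sets were named through the platform annotation (18178 of 26202 to 1 gene, 391 to several, 7633 to none), and the 10 member symbols were found by gene number in RefSeq. Signals were floored at the pooled chip median (149.8, 241.7 and 243.0 on chips A, B and C), then taken to log2. A gene's brightest probe set stood for it, and counts at 2-fold use probe sets that passed the floor on either array. An additive fit of vessel and stage (limma 3.58.1, R 4.3.3, 4 arrays per chip, 1 residual degree of freedom, Benjamini-Hochberg over all 13810 probe sets, tested on simulated data) left the oxygen ductus out. The simulated data held independent noise and no interaction of vessel and stage. They therefore check the code and cannot show that the p values hold for these arrays. Promoters came from RefSeq (GRCr8). The members, the lists and the motifs were chosen with earlier results of these data known. A list of downstream signalling genes is not reported here. From the other wider lists, up to 3 genes per list and comparison with the largest ratio past 2-fold were named. Others (Pla2g4a, Tbxa2r, Alox5 and the marker genes) were chosen after their values were seen.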

Additional observations from a re-analysis of the deposited data

Results flagged for a closer look

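Ratios of 5 genes had opposite signs in the 2 settings of the same comparison, with 1 array per state, and in none of them was the difference tested. The share of all genes with such a change of sign was not counted, so the number does not set these genes apart. The ductus to aorta log2 ratio of Ptgs1 was 0.13 in the newborn and -0.32 in the fetus, a difference of 0.45. That of Ptgfr was 0.11 in the newborn and -0.81 in the fetus, a difference of 0.92. That of Ptgis was -0.03 in the newborn and 0.62 in the fetus, a difference of -0.65. That of Alox15 was 0.16 in the newborn and -0.50 in the fetus, a difference of 0.66, but its second probe set had 0.00 in the newborn with both fetal arrays under the floor, and the fetal ratio was -0.05 with the floor at 1.5 times the chip median. The newborn to fetal log2 ratio of Slco2a1 was -0.23 in the ductus and 0.28 in the aorta, a difference of -0.51, and its second probe set had 0.31 in the ductus and 0.06 in the aorta, with no change of sign.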

How the results depend on the processing

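Alternatives were a floor at 0.5 or 1.5 times the chip median, a fold of 1.5, quantile normalization, the mean of a gene's probe sets, no floor with 50 added to the signal, and for limma also an intensity trend, probe sets above the floor on all 4 arrays, and adjustment per chip. At a fold of 1.5, the members apart numbered 2 for newborn ductus against newborn aorta, 4 for fetal ductus against fetal aorta and 5 for newborn aorta against fetal aorta. The share of all genes past 1.5-fold was not counted, so these numbers do not set the members apart. With the floor at 1.5 times the median, 0 were apart between newborn ductus and newborn aorta, since Ptgir there had -0.93, with the newborn ductus at the raised floor. For limma, 1 member (Ptgir) passed for vessel with an intensity trend, and 1 among probe sets above the floor on all 4 arrays. There 1 (Alox15 at S69383_at) passed for birth, because Pla2g2a and Alox15 at L06040_s_at have a fetal array at the floor and were not tested. The shares of all probe sets passing in these limma alternatives are not given. The other counts stayed within 1.5 times. Of 220 single ratios under these alternatives, 217 kept their sign, 0 of those past 2-fold reversed, and 18 moved by more than their spread, among them Ptgs2 (newborn to fetal ductus 1.05 with the lower floor and 0.72 with no floor, against 0.12), Ptgfr (newborn to fetal aorta -0.38 over the mean of its probe sets) and Slco2a1 (fetal ductus to fetal aorta 0.42 over its mean). No paired analysis was possible because each state has 1 array per chip type.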
